A study of Homo sapiens with 4 samples.

Results

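In HK1 cells, 10854 regions of open chromatin were listed in wild-type cells treated with interferon-γ (IFN-γ) and in none of the other 3 groups. They were selected on the peak lists themselves. Peaks of the 4 lists that overlapped by at least 1 bp were merged into 93211 regions on 23 chromosomes, and the members are the merged regions with a WT-IFN-γ peak and no WT, sgFLI1 or sgFLI1-IFN-γ peak. They make up 11.6% of all merged regions and 16.3% of the 66733 regions with a WT-IFN-γ peak. Which list held a peak is therefore what defined them, and their presence in WT-IFN-γ is a description and not a finding.

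HK1 is an established line of nasopharyngeal carcinoma cells. ATAC-seq, in which a transposase inserts into accessible DNA, was run on wild-type cells left untreated (WT), wild-type cells given IFN-γ (WT-IFN-γ), cells with the gene of the ETS transcription factor FLI1 disrupted by a guide RNA (sgFLI1) and such cells given IFN-γ (sgFLI1-IFN-γ). The exposure to IFN-γ was 24 h by the study's own account of the experiment. Each group is 1 library, and neither the labels nor the methods state whether the knockout cells were 1 clone, which guide was used for these libraries, or whether a deposited list pooled replicates. No difference between groups could be tested, intervals are 95% counting intervals (Wilson for shares, exact Poisson for tags), and regions and genes are not replicates.

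IFN-γ signals through its receptor and the JAK kinases to transcription factors that induce a first wave of genes, among them that of interferon regulatory factor 1 (IRF1). IRF proteins then bind tandem GAAA half-sites, called interferon-stimulated response elements, at antiviral, antigen-presentation and metabolic genes. IDO1, the tryptophan-degrading enzyme whose promoter the study examined, is one of these IFN-γ-inducible genes.

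The tandem half-site was far more frequent in the members than in regions found only in one of the other 3 lists. Its letters are GAAANNGAAA, where N is any base, searched on both strands. It lay within 100 bp of the summit in 16.5% of all members and in 4.65% of all merged regions. Of the 20 members of highest significance, 14 (70%) held it. These 20 were picked by significance, with which the share rose, so the 70% does not stand for the members at large. The 30 bases around the copy nearest the summit are shown for these 14, with the half-sites and the bases between them in capitals, each read 5′ to 3′ on the strand given (GRCh38) and named for the nearest protein-coding gene.
LGALS16, chr19:39678191-39678220, minus strand: ggaattatgtGAAAGTGAAAgcactggaag
CIITA, chr16:10878892-10878921, plus strand: gctgcagaaaGAAAGTGAAAGGGAAAaaga
UBE2Z, chr17:48915957-48915986, plus strand: tattaatagtGAAAGAGAAActtatggtga
RTL1, chr14:100849603-100849632, plus strand: aaatGAAAGCGAAAGGGAAAataaagaaaa
DLG2, chr11:84714520-84714549, minus strand: aagaGAAAGAGAAAGAGAAAgaggaaatgg
PCGF5, chr10:91198967-91198996, minus strand: catggccagtGAAACTGAAAgctaagaact
FAS, chr10:89084564-89084593, plus strand: aataacatatGAAATAGAAAGTGAAAgaac
FLRT2, chr14:84037170-84037199, plus strand: cctgccatgtGAAACTGAAAcaaaggaaag
MAP3K13, chr3:185332578-185332607, minus strand: gtcattcattGAAACAGAAAgtagaatggt
STX4, chr16:31022655-31022684, minus strand: agacttccagGAAAGTGAAAgtggaaacag
NOS2, chr17:27810452-27810481, plus strand: aatggaaggaGAAAGAGAAAagtcacacaa
ICE1, chr5:5523423-5523452, plus strand: gtgagggctaGAAAATGAAActgagacttg
GARIN4, chr1:212635353-212635382, minus strand: ccaggcatttGAAACTGAAAggaagctgtt
TMEM106B, chr7:12257838-12257867, plus strand: ggctggaagtGAAAGTGAAAatgatgaagg

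Most of these strongest members lay far from promoters. In 3 of the 20 the summit was at most 1 kb from the start (TSS, transcription start site) of a protein-coding gene, and the naming of a region by its nearest gene states position alone. CIITA encodes the transactivator of MHC class II genes, and its member (chromosome 16, 10878174 to 10879016) peaked 113 bp upstream of one annotated CIITA TSS, in intron 1 of the canonical transcript. Its pileup, the number of tags (extended sequenced fragments) stacked at the summit, was 128 (107 to 152) over a local background of 19.4. With that background a pileup of 32 was the lowest that would have been listed in WT and 29 the lowest in either FLI1-knockout library. A separate region found only in sgFLI1-IFN-γ also lay within 10 kb of a CIITA TSS. The UBE2Z member lay in intron 3 of the canonical transcript, 272 bp downstream of another annotated TSS, with 76 tags (59.9 to 95.1). The third, 8 bp upstream of a TSS of GNB1, had 109 tags (89.5 to 131), no IRF motif and another region 363 bp away. The NOS2 member, 9971 bp upstream of the inducible nitric oxide synthase gene, had 100 tags (81.4 to 122) and 2 copies of the motif. The 6 without the motif were named for GNB1, SIK1, B4GALNT3, CLEC3B, TGM2 and UBXN7. Among them the TGM2 member, 10569 bp downstream of a TSS of the transglutaminase 2 gene, had the highest pileup of all members, with 156 tags (132 to 182) over a background of 37.2. The DLG2 member held 7 copies of the motif, and the bases shown above repeat GAAAGA, so its copies may belong to a simple repeat. Repeat annotation was not used.

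Across all members the motif lay within 100 bp of the summit in 1789 regions (16.5%, 15.8 to 17.2%). In regions listed only in WT the share was 2.39% (2.02 to 2.83%), in those only in sgFLI1 2.12% (1.83 to 2.46%) and in those only in sgFLI1-IFN-γ 2.38% (2.02 to 2.81%). Regions listed in all 4 groups had it in 2.81% (2.66 to 2.98%). The class that came closest to the members was made up of the 1624 regions listed in both IFN-γ libraries and in neither untreated one, at 15.1% (13.5 to 17%). Of the 2035 such WT-IFN-γ regions that were in neither untreated list, 1789 (87.9%, 86.4 to 89.3%) had no sgFLI1-IFN-γ peak and 246 had one. Among the regions without the motif the share missing from sgFLI1-IFN-γ was nearly the same, at 86.8% (86.1 to 87.4%). At −log10 q of at least 20 it was 67% (60.4 to 73%) with the motif and 57.8% (51.1 to 64.3%) without, and these intervals overlapped.

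The share with the motif rose with the significance of the member. MACS gives each peak a q-value, and a larger −log10 q means a peak less likely to arise from background. From the class under 2 to those of 2 to 3, 3 to 5, 5 to 10, 10 to 20 and 20 or more, the motif was in 5.35%, 6.47%, 13.5%, 21.2%, 33.9% and 53.4% of members. The last class held 262 members (47.4 to 59.4%). In regions listed in both IFN-γ libraries alone the share rose as well, to 43.7% (36.2 to 51.5%). In the other single-list classes with 20 regions or more, it stayed between 0.568% and 3.66% throughout. Significance follows tag number, so the weaker classes of members also hold the regions whose listing is least certain.

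**Figure D1:**
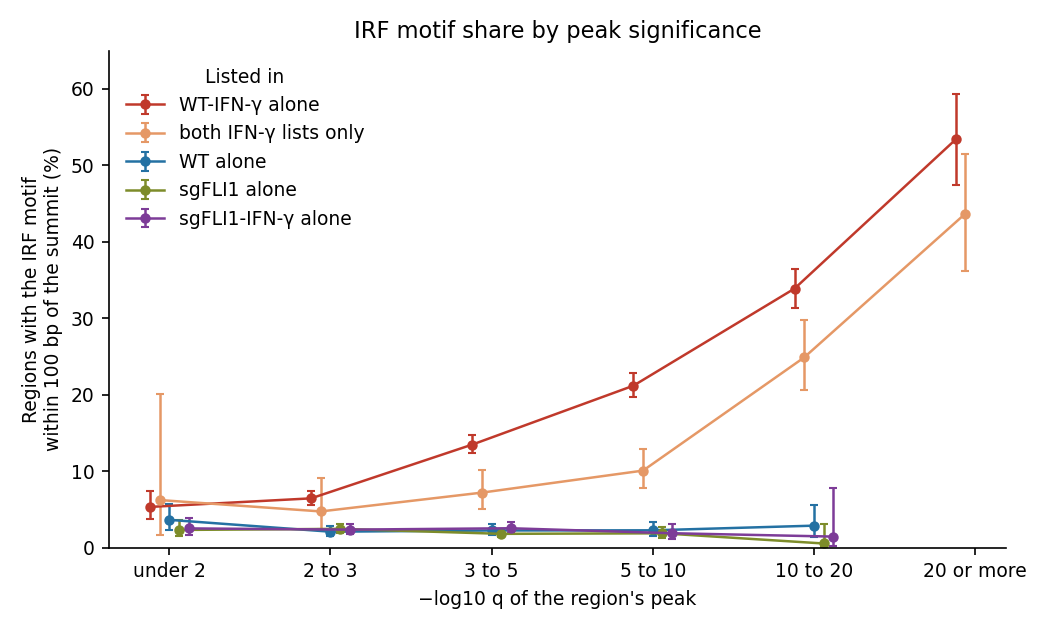
Share of regions with the IRF motif within 100 bp of the summit (y axis, %) by class of −log10 q (x axis), for members (red) and 4 other list combinations, with 95% Wilson intervals; classes under 20 regions are left out. The members climb from 5.35% to 53.4% while regions found only in WT, sgFLI1 or sgFLI1-IFN-γ stay below 4%.

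Where the motif occurred in a member, it sat close to the point of highest accessibility. Of the 2617 members with a copy within 250 bp of the summit, 48% (46 to 49.9%) had it within 50 bp. The share was 16.5% (13 to 20.7%) in regions only in WT, 17.1% (13.9 to 20.8%) in those only in sgFLI1 and 18% (14.4 to 22.2%) in those only in sgFLI1-IFN-γ. At 225 to 250 bp from the summit the nearest copy lay in 1.09% (0.909 to 1.3%) of all members and in 0.543%, 0.644% and 0.403% of these 3 classes. The bases between the half-sites were not evenly used. GT stood there in 27.5% (25.7 to 29.4%) of the 2166 copies in members, in 25.7% (21.2 to 30.8%) of those in regions of both IFN-γ lists alone and in 12.3% (10.9 to 13.9%) of the copies in WT-IFN-γ regions outside both IFN-γ classes. A single copy within the window was found in 84.2% (82.5 to 85.9%) of the members with the motif and in 81.3% (76 to 85.7%) of such regions of both IFN-γ lists alone.

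**Figure D2:**
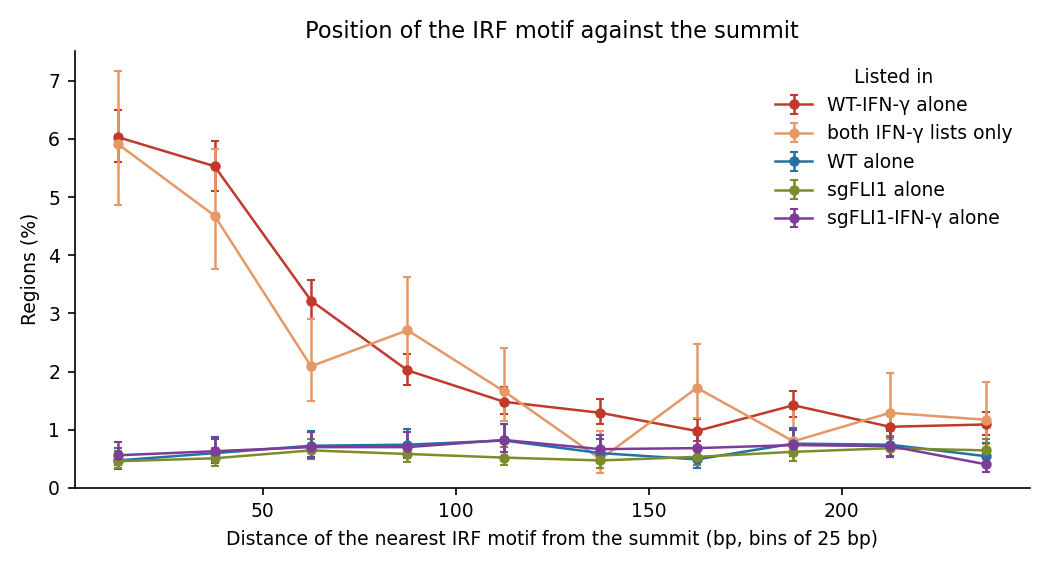
Share of regions (y axis, %) whose nearest IRF motif lay at a given distance from the summit (x axis, bp, bins of 25 bp), with 95% Wilson intervals, for members and 4 other list combinations. Members and regions of both IFN-γ lists peak within 50 bp of the summit, and the other 3 classes show no such peak.

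A search that assumed no motif led to the same letters. All 8-base words found in at least 1% of members (5724 words, each counted with its reverse complement) were ranked by the ratio of their share in members to that in the other WT-IFN-γ regions. The 10 highest were AAGTGAAA, AAAGTGAA, AGTGAAAG, GTGAAAGT, GAAAGTGA, GAAAGTAA, TGAAAGTA, AGTGAAAC, AAACTGAA and TGAAAGTG. They overlap each other along the same element and are not separate results. AAGTGAAA was in 10.7% of members, in 9.98% of regions of both IFN-γ lists alone, in 2.07% of the other WT-IFN-γ regions and in 1.25%, 1.09% and 1.79% of the regions only in WT, only in sgFLI1 and only in sgFLI1-IFN-γ. The lowest ratio belonged to CCCGCCCC, a GC-rich promoter word found in 1.11% of members and 7.56% of the other WT-IFN-γ regions. It was as rare in regions of both IFN-γ lists alone (1.29%), only in WT (1.19%), only in sgFLI1 (1.25%) and only in sgFLI1-IFN-γ (1.03%). Its low share is therefore not particular to the members.

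Base composition was compared as well. The median GC content was 45.3% in members, 45.8% in regions only in WT, 49.8% in those only in sgFLI1 and 54.2% in those of all 4 lists. With all regions put into 5 classes of GC content, the motif was in 25.3% (23.9 to 26.7%) of members in the class of lowest GC (up to 41.8%), against 3.54% of regions only in WT, 4.11% of those only in sgFLI1 and 4.6% of those only in sgFLI1-IFN-γ. In the class of highest GC (above 60.2%) it was in 2.08% of members. Members had a higher share than each of the 3 other single-list classes in all 5 classes of GC. From lowest to highest GC, it was 25.3%, 18.4%, 12.3%, 5.99% and 2.08% in members. In regions of both IFN-γ lists alone it was 21.7%, 18.8%, 11%, 10.4% and 0.714%, so the higher share was not particular to the members.

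Sites of other factors were counted in the same windows. TGANTCA, the site of AP-1 (the JUN and FOS family), was in 19.9% of members (19.1 to 20.6%), in 24.8% of regions in both IFN-γ lists alone and in 22.5% of all merged regions. Regions only in WT had it in 14.4%, those only in sgFLI1 in 19.1% and those only in sgFLI1-IFN-γ in 16.7%. Members with the IRF motif had it less often (16.7%, 15 to 18.5%) than those without (20.5%, 19.7 to 21.4%). TTGCNNAA, bound by C/EBP factors, was in 13.2% of members (12.6 to 13.9%) against 10.4% of all regions, and also in 14.3% of regions listed in both WT groups alone. The ETS site CCGGAAGT, of the kind FLI1 binds, was in 24 members (0.221%, 0.149 to 0.329%) and in 0.984% of all merged regions. It was as rare in regions only in WT (0.235%), only in sgFLI1 (0.173%) and only in sgFLI1-IFN-γ (0.105%), against 1.95% of regions of all 4 lists. Its shorter core GGAAGT was in 14% of members and 14.1% of all regions. The composite GGAANNGAAA, which ETS and IRF proteins can bind together and which can overlap the IRF motif by its last half-site, was in 3.56% (3.22 to 3.92%) against 2.09%. The CTCF consensus was in 2.3% (2.04 to 2.6%) of members and 6.45% of all regions, and among the members with the IRF motif in 8 (0.447%). Its share was 4.87% in regions only in WT, 1.92% only in sgFLI1, 2.52% only in sgFLI1-IFN-γ and 8.59% in all 4 lists. GGANTTTCC, an NF-κB site, was in 1.23% of members and 1.17% of all regions.

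The members were weak peaks as a group. Their median pileup was 13 tags, from 8 to 156, with quartiles of 11 and 18. The median −log10 q was 4.18 against 24.6 in regions of all 4 lists, and 724 members (6.67%) exceeded the median of the WT-IFN-γ list. Regions only in WT had a median of 3.42, those only in sgFLI1 3.12 and those only in sgFLI1-IFN-γ 2.78. A −log10 q of at least 20 was reached by 262 members and by 13, 7 and 3 regions of these classes. At the edge of the rule, 598 members had a −log10 q under 2. Just outside it were 21 regions with a −log10 q of at least 10 in WT-IFN-γ that a single other peak with a −log10 q under 2 kept out. That peak was in WT for 3 of them, in sgFLI1 for 10 and in sgFLI1-IFN-γ for 8, where the median pileups were 35.5 tags in WT-IFN-γ and 9 in sgFLI1-IFN-γ.

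WT-IFN-γ had the highest estimated tag density. Tag density at background, estimated from the lowest background value in each list, was 8.84 per kb in WT-IFN-γ, 8.04 in WT, 6.93 in sgFLI1 and 6.86 in sgFLI1-IFN-γ. With each member's pileup and background scaled to the density of sgFLI1-IFN-γ, 83.8% (83.1 to 84.5%) would have reached the lowest pileup that library listed over such a background. The share was 93.5% for sgFLI1 and 96.4% for WT. With the lower counting bound of the pileup, 2692 members (24.8%) passed in all 3 other libraries, and these are called strong members. The pileups come from the same peaks by which members were selected. These shares therefore describe the members and do not test their absence from the other libraries. Strong members held the IRF motif in 31.6% (29.9 to 33.4%) and the other 8162 members in 11.5% (10.8 to 12.2%). The AP-1 site was in 27.2% and 17.5%. The 20 members of highest significance were all strong ones.

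Members were as near to promoters as the other single-list regions were. Within 3 kb of a protein-coding TSS lay 14.2% (13.5 to 14.8%) of members, 14.5% of regions only in WT, 14.5% of those only in sgFLI1, 13.1% of those only in sgFLI1-IFN-γ and 38.1% of those of all 4 lists. Beyond 3 kb, 35.6% of members were in introns of protein-coding genes, 2.73% in exons and 47.5% outside such genes. Members with the IRF motif were within 3 kb of a TSS less often (11.1%, 9.75 to 12.7%) than those without (14.8%, 14.1 to 15.5%). The median distance from a member to the next region of any kind was 7269.5 bp, and 10.6% had a neighbour within 1 kb.

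Interferon genes had a member nearby more often than genes at large. Of 19962 protein-coding genes, 3441 (17.2%) had a member within 10 kb of a TSS. Of 181 interferon-related genes in 14 functional groups, 58 did (32%, 25.7 to 39.2%). Regions only in WT lay near 9.22% of all genes and 6 of the 181 (3.31%, 1.53 to 7.04%), those only in sgFLI1 near 12.9% and 19 (10.5%, 6.82 to 15.8%), and those only in sgFLI1-IFN-γ near 8.8% and 15 (8.29%, 5.09 to 13.2%). Regions of both IFN-γ lists alone lay near 3.11% of all genes and 23 of the 181 (12.7%, 8.62 to 18.3%). With −log10 q of at least 10 required, members lay near 2.84% of all genes and 21 of the 181 (11.6%, 7.71 to 17.1%). At that limit regions only in WT, only in sgFLI1 and only in sgFLI1-IFN-γ lay near 0.546%, 0.481% and 0.16% of all genes. They lay near 0, 1 and 0 of the 181, counts whose intervals include those shares. Regions of both IFN-γ lists alone at that limit lay near 1.03% of all genes and 17 of the 181 (9.39%). Taking for each of these 58 genes its most significant member within 10 kb gave 56 regions, of which 31 were strong ones and 18 held the IRF motif. Over all members 24.8% were strong and 16.5% held the motif. Choosing the most significant member of each gene favours both, so the counts are not a trait of interferon genes.

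Some interferon promoters were listed only in WT-IFN-γ. Across the genome, 227 genes (1.14%) had a member within 1 kb of a TSS and no other region within 1 kb of any TSS. Among the 181 genes there were 13 (7.18%, 4.25 to 11.9%), namely CASP1, CMPK2, CXCL11, GBP4, GBP6, HLA-DQB1, HLA-F, IDO1, IFI44, MX2, OAS1, PLAAT4 and XAF1. They encode, among others, an inflammatory caspase, a chemokine for activated T cells, guanylate-binding proteins, antigen-presenting molecules and antiviral effectors. Promoters listed only in WT, only in sgFLI1 or only in sgFLI1-IFN-γ numbered 110, 173 and 124 across the genome (0.551%, 0.867% and 0.621%). Among the 181 genes there were 0 in each case, with an upper bound of 2.08% that is above these shares. Regions of both IFN-γ lists alone were not counted in this way. Within 3 kb of a TSS they lay near 16 of the 181 genes (8.84%, 5.51 to 13.9%) and 1.21% of all genes. Members within 3 kb lay near 35 of the 181 (19.3%, 14.2 to 25.7%) and 7.48% of all genes.

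The antiviral group had the most members. Of its 33 genes 17 had a member within 10 kb (51.5%, 35.2 to 67.5%), against 17.2% of all protein-coding genes. For the other single-list classes the counts were 1, 2 and 1, against 9.22%, 12.9% and 8.8% of all genes. Regions of both IFN-γ lists alone lay near 4 of the 33 (12.1%, 4.82 to 27.3%), against 3.11% of all genes. CMPK2 and RSAD2 share 1 region, and IFIT1, IFIT2 and IFIT3 are neighbours, as are MX1 and MX2. These genes do not count separately. OAS1, an enzyme that makes the activator of RNase L, had its member (chromosome 12, 112906673 to 112907396) at 1 bp from a TSS with 45 tags (32.8 to 60.2), and 10 tags would have been listed there in either FLI1-knockout library. IFI44 (chromosome 1, 78649498 to 78649893) had 35 tags (24.4 to 48.7) at 12 bp from a TSS. The IFIT3 member (chromosome 10, 89332207 to 89332801) had 60 tags (45.8 to 77.2) at 17 bp upstream of an internal TSS, in intron 1 of the canonical transcript, and held 2 copies of the motif. IFIT3 also had a region found only in sgFLI1-IFN-γ within 10 kb. Those at MX2 (19 tags, 11.4 to 29.7) and IFIT1 (14 tags, 7.65 to 23.5) were weaker, and their lower bounds did not clear the limits of the other libraries.

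Of 7 guanylate-binding protein genes, 6 had a member within 10 kb (85.7%, 48.7 to 97.4%), against 17.2% of all protein-coding genes. The genes lie close together on chromosome 1, so they do not count separately. These GTPases act on intracellular pathogens. The GBP4 member (chromosome 1, 89198473 to 89199814) lay 19 bp upstream of the TSS with 33 tags (22.7 to 46.3), that of GBP7 1170 bp upstream with 29 (19.4 to 41.6) and that of GBP2 2984 bp upstream with 46 (33.7 to 61.4). All 3 were strong ones. The members near GBP1 (29 tags, 19.4 to 41.6) and GBP5 (11 tags, 5.49 to 19.7) were 8345 and 7439 bp from a TSS, and both genes also had a region of both IFN-γ lists within 10 kb. GBP2 had a region only in sgFLI1, and no GBP gene had one only in WT or only in sgFLI1-IFN-γ.

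For antigen presentation the count was near the background. Of 19 genes of MHC class I and peptide loading 3 (15.8%, 5.52 to 37.6%) had a member within 10 kb, and of 11 class II genes 2 (18.2%, 5.14 to 47.7%), where CIITA was one. The HLA-F member (chromosome 6, 29723114 to 29723578) lay 10 bp upstream of a TSS with 37 tags (26.1 to 51) and was strong. Those at HLA-B (11 tags, 5.49 to 19.7), 2752 bp downstream of a TSS, and HLA-DQB1 (14 tags, 7.65 to 23.5) were not. HLA genes have near-identical copies whose reads an aligner can misplace, so peaks there are less certain.

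Of 9 interferon regulatory factor genes 2 (22.2%, 6.32 to 54.7%) had a member within 10 kb, and of 8 genes of the IFN-γ receptor, JAK kinases and SOCS proteins 2 (25%, 7.15 to 59.1%), with intervals that include the 17.2% of all genes. IRF1 had one (chromosome 5, 132464146 to 132464632) at 8594 bp downstream of an annotated TSS and 26324 bp downstream of the canonical one, with 55 tags (41.4 to 71.6) and 2 copies of the motif. IRF4 had a weak one of 11 tags (5.49 to 19.7). SOCS1, the feedback inhibitor of JAK kinases, had 2 members within 10 kb, one 2717 bp upstream with 68 tags (52.8 to 86.2) and 3 copies of the motif over a background of 33 and one 5873 bp downstream with 30 tags (20.2 to 42.8). Only the latter was a strong member. The SOCS3 member had 10 tags (4.8 to 18.4). IRF1, IRF4 and SOCS3 each had a region only in sgFLI1-IFN-γ within 10 kb as well. Of 10 genes of checkpoint ligands and related surface proteins 1 had a member, CD86 (13 tags, 6.92 to 22.2). CD274, which encodes PD-L1, had none within 10 kb.

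In the other groups the count was 4 of 13 cell-death genes, 4 of 16 TRIM and nuclear-body genes, 2 of 6 APOL genes, 2 of 6 PARP genes, 2 of 9 chemokines and 9 of 33 remaining IFN-γ-inducible genes. The intervals of all these shares include the 17.2% of all genes. The CASP1 member (chromosome 11, 105035082 to 105035451), 34 bp upstream of a TSS of the caspase that activates IL-1β, had 31 tags (21.1 to 44). At TRIM22, an antiviral ubiquitin ligase, the member (chromosome 11, 5689641 to 5690548) covered the TSS with 95 tags (76.9 to 116), and TRIM5 lies beside it and shares it. UBE2L6, which encodes the conjugating enzyme for ISG15, had 62 tags (47.5 to 79.5) in intron 1, RNF213 had 72 (56.3 to 90.7) and a region 6794 bp upstream of CD40 had 36 (25.2 to 49.8). CXCL11 had 17 tags (9.9 to 27.2) at 92 bp upstream of its TSS.

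**Figure D3:**
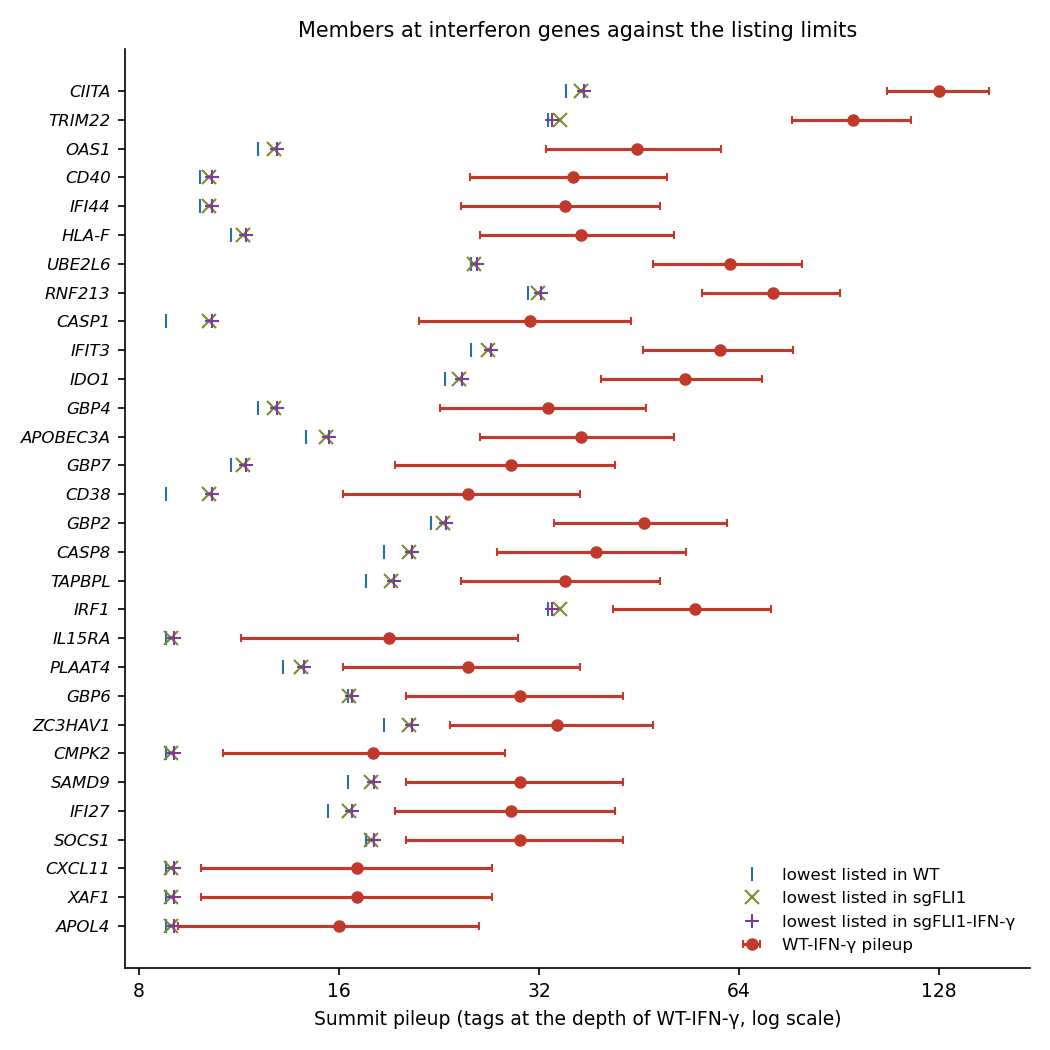
Summit pileup in WT-IFN-γ (x axis, tags, log scale, red points with 95% Poisson intervals) of the 30 most significant members within 10 kb of interferon-related genes, with the lowest pileup the other 3 libraries would have listed at that background, scaled to the depth of WT-IFN-γ. All 30 intervals lie above the 3 limits, from CIITA at 128 tags to APOL4 at 16. The 30 were picked by significance, which largely fixes this. Of all 56 regions taken for interferon-related genes, 31 were strong ones.

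Genes outside the interferon groups had members at shares whose intervals include the 17.2% of all genes. These were 4 of 12 NF-κB genes, 3 of 13 AP-1 genes, 6 of 18 ETS genes, 3 of 9 lysine acetyltransferases, 5 of 23 genes of squamous keratins and junctions and 9 of 74 ribosomal protein genes (12.2%, 6.53 to 21.5%). Regions only in WT lay near 4 of the same 12 NF-κB genes, 1 ETS gene and 2 acetyltransferases, and regions only in sgFLI1 near 9 ribosomal protein genes. TNFAIP3, which encodes the NF-κB inhibitor A20, had a member of 48 tags (35.4 to 63.6) in intron 2. ELF1 had one of 27 tags (17.8 to 39.3) in intron 1 with the IRF motif. The member in intron 3 of CREBBP, which encodes the acetyltransferase CBP, had 18 tags (10.7 to 28.4), while KAT6A (11 tags, 5.49 to 19.7) and KAT2B (9 tags, 4.12 to 17.1) had weak ones.

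**Figure D4:**
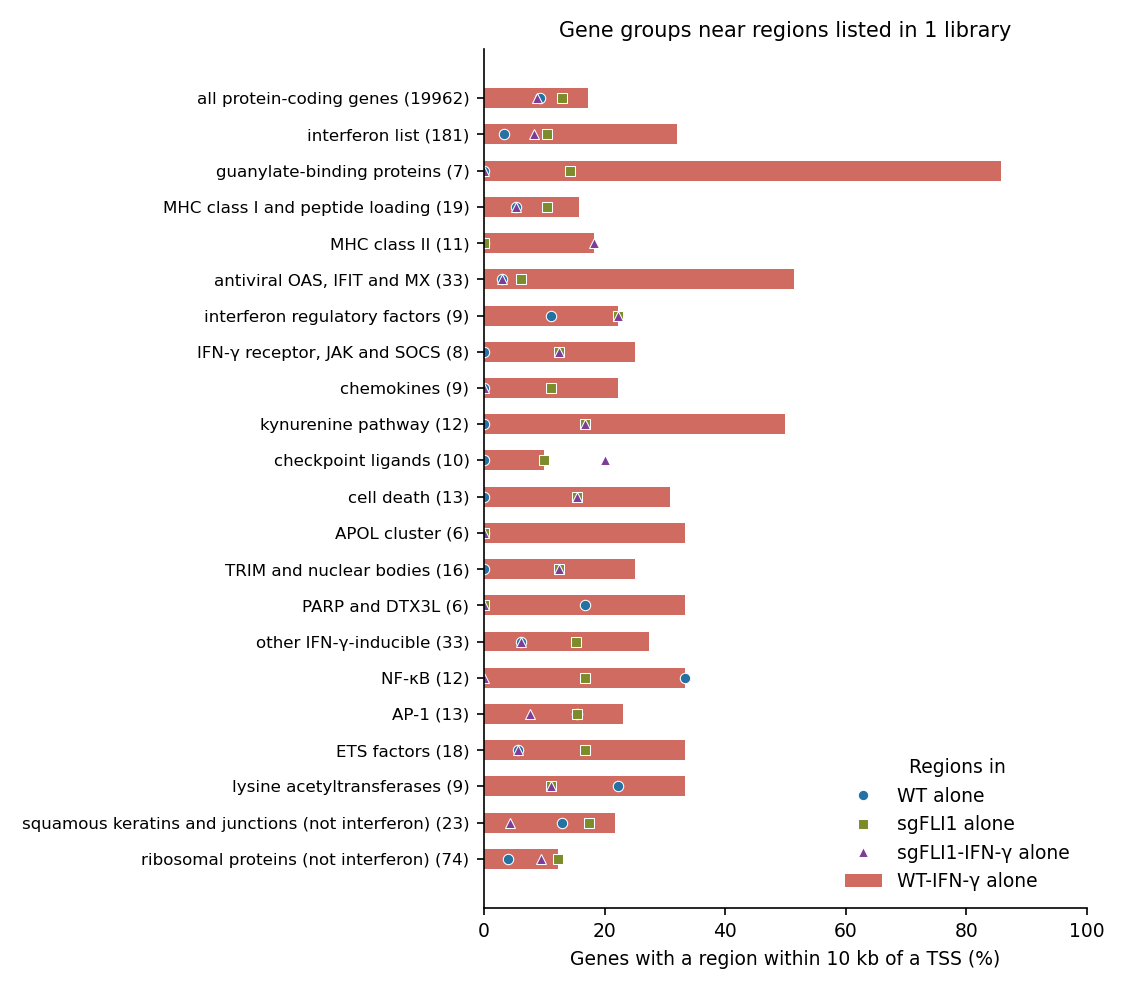
Share of the genes of each group (y axis, number of genes in brackets) with a region within 10 kb of a TSS (x axis, %), for members (bars) and for regions only in WT, only in sgFLI1 or only in sgFLI1-IFN-γ (points). Guanylate-binding proteins (85.7%), antiviral genes (51.5%) and the kynurenine pathway (50%) have the longest bars, against 17.2% of all protein-coding genes.

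The motif copies at these genes are shown for 9 of the named members that hold one, in the same form as those above. All but ELF1 belong to the interferon-related groups.
GBP4, chr1:89198927-89198956, plus strand: tgtgagaaccGAAATTGAAAggacatgcac
HLA-F, chr6:29723268-29723297, minus strand: ggttgggagaGAAAGAGAAActctggggag
IFI44, chr1:78649761-78649790, minus strand: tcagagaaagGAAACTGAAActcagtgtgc
IFIT3, chr10:89332468-89332497, minus strand: aaggggaaagGAAAGTGAAActgatggaac
IRF1, chr5:132464413-132464442, minus strand: agtgaaactgGAAAATGAAActgtgatttc
CASP1, chr11:105035134-105035163, plus strand: ttgtgtgactGAAACTGAAAgtatgcttcg
UBE2L6, chr11:57566307-57566336, plus strand: cagaggaacaGAAAATGAAAgtagaaaggc
RNF213, chr17:80263550-80263579, minus strand: cattttctgcGAAAGTGAAAtcacagcagc
ELF1, chr13:40984832-40984861, minus strand: cagtggaaaaGAAAGTGAAActtaaattta

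The motif was also counted in promoters, whatever the peak lists held there. In RefSeq promoter windows (GRCh38.p14, 250 bases before to 50 after a start), 36.2% (29.6 to 43.4%) of those of the interferon-related genes held it, against 3.57% (3.38 to 3.77%) of all 35116 windows. Of the windows of genes with a member within 1 kb, 4.53% (3.4 to 6.01%) did.

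The windows with most members were listed without an expected count, so they describe the members' positions alone. Of the 100-kb windows of the genome, 8252 held a member, 422 held at least 3 and 15 at least 5. The window at the type III interferon genes on chromosome 19 had 5 members among 10 regions. One, 134 bp upstream of the TSS of IFNL1, had 23 tags (14.6 to 34.5) and 2 copies of the motif, and another, 9352 bp from the nearest TSS (IFNL2), had 57 (43.2 to 73.9) and also 2 copies. The SOCS1 window had 5 of 10 regions, including one of 50 tags (37.1 to 65.9). The window at WARS1, the IFN-γ-inducible tryptophanyl-tRNA synthetase, had 5 of 11, with 39 to 108 tags over high backgrounds of 17.6 to 51, and none with the motif. The 3 that lie within WARS1 were not strong ones. The window of most members, with 7 of 17, was at SLC6A19 and SLC6A18 on chromosome 5, where pileups were between 13 and 31 tags. Windows at SBNO2, KLHDC4, PRKCI and TIPARP also held 5 members each.

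The second densest window held IDO1 and IDO2, with 6 members among 10 regions of chromosome 8 (39900001 to 40000000). In this window all 10 regions had a WT-IFN-γ peak, 4 had a WT peak, 3 a sgFLI1 peak and 2 a sgFLI1-IFN-γ peak. IDO1 (ENSG00000131203.13) and its neighbour IDO2 encode enzymes that open the indole ring of tryptophan. The strongest member covered the IDO1 TSS with 53 tags (39.7 to 69.3), and at its background 21 tags would have been listed in WT and 19 in either FLI1-knockout library. It held 1 copy of the motif. The member in intron 5 of IDO2 (39984308 to 39985234) had 40 tags (28.6 to 54.5), where 11 would have been listed in the FLI1-knockout libraries. The remaining 4, with 20 (12.2 to 30.9, intron 2 of IDO2), 15, 12 and 12 tags, had lower bounds that did not clear the limits of the other libraries.

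Of the 12 kynurenine-pathway and tryptophan-using genes 6 had a member within 10 kb (50%, 25.4 to 74.6%), against 17.2% of all protein-coding genes. IDO1 and IDO2 are neighbours that share some of these regions, so they do not count separately. The other genes were WARS1 with 3 (47, 47 and 39 tags), AFMID (12 tags, 6.2 to 21), KYNU (14 tags, 7.65 to 23.5) and KYAT1 (11 tags, 5.49 to 19.7). The last 3 are weak, and the regions near AFMID and KYAT1 lie within other genes. TDO2, KMO, HAAO, QPRT, KYAT3 and AADAT had none. Regions only in WT lay near none of the 12 genes, and those only in sgFLI1 or only in sgFLI1-IFN-γ near 2 each.

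Chromosomes differed in their share of members, from 7.91% of the regions on chromosome 22 to 15.4% on chromosome 18. The ratio of sgFLI1-IFN-γ to WT-IFN-γ pileups in regions of all 4 lists also differed between chromosomes, and on the log2 scale it was -0.36 on chromosome 18, -0.27 on 16, -0.20 on 9 and -0.18 on 19 relative to the median. Across the 23 chromosomes Pearson's r between this ratio and the share of members was -0.33, a description of points that share 2 libraries. The part of such chromosome-wide differences in membership was not tested. The motif was in 16.8% of the members on chromosome 18, 13.4% on 16, 14.9% on 9 and 9.21% on 19. The median over chromosomes was 16.5%, from 8.87% to 19.8%. Pearson's r between the same ratio and the share of members with the motif was 0.39, also a description only.

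**Figure D5:**
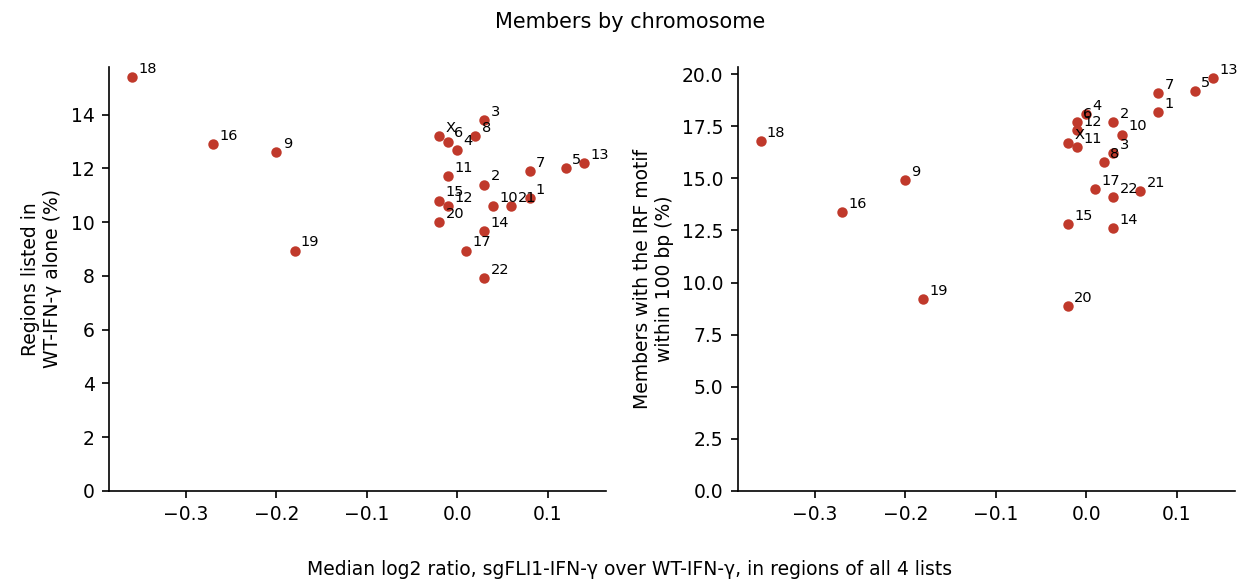
Share of regions that are members (left, %) and share of members with the IRF motif (right, %) by chromosome, against the median log2 ratio of sgFLI1-IFN-γ to WT-IFN-γ pileups in regions of all 4 lists (x axis). Chromosomes 9, 16, 18 and 19 lie to the left, and chromosome 18 has the highest share of members at 15.4%.

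The identity of the cells was checked at marker promoters. Of 14 squamous epithelial markers, 7 in WT and 8 in each other list had a peak within 1 kb of a TSS, among them KRT17, EPCAM and DSP, whereas KRT5, KRT14 and TP63 had none. Of 13 lymphoid and myeloid markers 3 to 4 had one, with none at PTPRC or CD3E, and of 6 fibroblast and endothelial markers 2 to 4. An open promoter does not show expression, so these counts describe the lists only.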

How the data were processed

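ATAC-seq was run on 4 HK1 libraries, 1 per group. The deposited files are MACS narrowPeak lists in GRCh38. In the submitters' processing notes the tools are Trimmomatic 0.3, FastQC, Bowtie2 2.3.4.1, SAMtools, Picard, MACS2 2.1.2, ChIPseeker and DiffBind. Duplicates and alignments of low mapping quality were removed by the authors, and the study's methods name an IDR filter. Whether reads were shifted for the transposase, and whether a list pools replicates or follows that filter, are not given in the sources used here. The authors deposited for each peak a score (MACS's whole-number rescaling of the q-value), a fold enrichment ratio of pileup over background, and −log10 p and −log10 q values from MACS.

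Pileup and background were solved as whole tags from the deposited fold and −log10 p of each peak (Poisson, pseudocount as in MACS). All peaks were recovered within 0.01 on the −log10 p scale. Tag density was the lowest background among peaks of over 30 tags divided by the extension length, taken as the smallest peak width of the list. A library's listing limit was the lowest pileup over a given background that reached its lowest listed −log10 p. Peaks were merged with at least 1 bp of overlap, and the WT-IFN-γ summit was used for members. Genes are protein-coding genes of GENCODE 44, and promoters are RefSeq windows. Motifs were sought within 100 bp of summits. Named regions were the 20 members of highest significance, the most significant members near up to 3 genes of each group, all kynurenine genes, and the 10 windows of 100 kb with most members, of which 1 is not reported here. MX2, IFIT1, GBP1 and GBP5 were named in addition after their values were seen. The members and the gene lists were chosen with earlier results of these data known. No test was run. Alternatives were −log10 q limits, list sizes, windows and distances, and 2 were chosen after seeing the data (scaling by the background ratio, and leaving out 4 chromosomes). The scripts recovered 100% of simulated pileups, single-list regions and motifs. Python 3.11.15, pandas 2.3.3, scipy 1.17.1 and pysam 0.24.0 were used.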

Additional observations from a re-analysis of the deposited data

Results flagged for a closer look

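The number of regions found in a single list differed in opposite directions between the genotypes. WT-IFN-γ had 5329 more such regions than WT, and for sgFLI1-IFN-γ minus sgFLI1 the difference was -2361. With the 181 interferon-related genes near such regions the difference was 52 for WT-IFN-γ minus WT and -4 for sgFLI1-IFN-γ minus sgFLI1. With 1 library per group neither difference between genotypes was tested. WT-IFN-γ also had the longest list and the highest estimated tag density, and the part of depth in these counts was not tested.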

How the results depend on the processing

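Of 41 recomputed values 23 stayed within their interval or within 1.5 times the count, and 18 moved. The number of members was 4114 with −log10 q of at least 5, 1552 with at least 10 and 6282 with all lists cut to the 59629 most significant peaks. The share with the IRF motif was then 27.2%, 37.2% and 23%, and it was 10.8% within 50 bp and 24.1% within 250 bp of the summit. The share within 3 kb of a TSS was 13.4% with −log10 q of at least 10 and 13.2% without chromosomes 9, 16, 18 and 19, and 7.1% lay within 1 kb. Interferon-related genes with a member numbered 21 with −log10 q of at least 10, 35 within 3 kb and 123 within 50 kb. The share that would be listed at the depth of sgFLI1-IFN-γ was 100% with −log10 q of at least 5, with at least 10 and with equal list sizes, and 93% when libraries were scaled by their background ratio. Stricter limits and shorter lists leave fewer weak peaks by construction. No paired analysis was possible because each group is 1 library. Replicate spread is unknown, peaks of 8 to 11 tags sit near the listing limits, and a region without a listed peak may still be accessible.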
